A study of Mus musculus with 2 samples.

Results

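The immediate-early genes of the AP-1 and Nr4a families were followed in CD45+ cells of irradiated and non-irradiated MC38 tumors, colon carcinoma cells implanted under the skin. The 10 genes, Fos, Fosb, Jun, Junb, Jund, Egr1, Atf3, Nr4a1, Ier2 and Dusp1, were taken by symbol from the 32285 genes of both matrices, and each was found once. In the Control library the tumors received no dose, and in the IR library they received 1 dose of 20 Gy 4 days before collection. Each library pooled 4 tumors of mice labelled WT, and the mice of the study were 8 to 10 weeks old. The methods use the name WT also for Ythdf2 fl/fl mice without Cre, so whether these mice carried floxed alleles cannot be told apart from the label. With 1 library per group no test was possible, and every difference below compares these 2 libraries. Intervals are exact 95% intervals that cover counting error, and neither mouse nor library variation.

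Immediate-early genes are transcribed within minutes of a stimulus without new protein synthesis, mostly through kinases of the MAPK family that act on factors already bound at their promoters. Fos and Jun proteins pair to form the transcription factor AP-1, Egr1 and Nr4a1 encode further transcription factors, and Dusp1 encodes a phosphatase that switches the MAPK signal off. Enzymatic digestion of a tissue and cell sorting also induce these genes, and the methods describe collagenase digestion of tumors for flow cytometry. The levels below are therefore those of cells after digestion and sorting of tumors, handled 4 days after the dose.

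The promoters of Fos, Fosb, Jun, Nr4a1 and Dusp1 are shown because these genes span the range of differences described below. A promoter is here the 300 bases from 250 before the transcription start, taken from RefSeq on GRCm38.p6 and written 5′ to 3′ on the strand of the gene. Capitals mark the core TGACG of the CRE, the site of CREB and ATF factors, on either strand, the full CRE TGACGTCA that contains it, and the TATA box TATAAA.
Fos, chr12:85473640-85473939, plus strand: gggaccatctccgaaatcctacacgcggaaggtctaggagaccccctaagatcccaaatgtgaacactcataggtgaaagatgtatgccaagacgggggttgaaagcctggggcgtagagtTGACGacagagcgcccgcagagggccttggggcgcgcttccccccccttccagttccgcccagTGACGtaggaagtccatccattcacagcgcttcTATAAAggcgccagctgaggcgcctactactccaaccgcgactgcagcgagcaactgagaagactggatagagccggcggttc
Fosb, chr7:19309996-19310295, minus strand: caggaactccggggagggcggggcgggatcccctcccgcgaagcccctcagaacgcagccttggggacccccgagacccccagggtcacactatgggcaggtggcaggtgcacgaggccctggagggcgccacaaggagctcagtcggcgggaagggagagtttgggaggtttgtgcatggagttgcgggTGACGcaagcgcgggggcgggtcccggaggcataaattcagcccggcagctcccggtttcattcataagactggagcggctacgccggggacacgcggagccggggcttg
Jun, chr4:95052173-95052472, minus strand: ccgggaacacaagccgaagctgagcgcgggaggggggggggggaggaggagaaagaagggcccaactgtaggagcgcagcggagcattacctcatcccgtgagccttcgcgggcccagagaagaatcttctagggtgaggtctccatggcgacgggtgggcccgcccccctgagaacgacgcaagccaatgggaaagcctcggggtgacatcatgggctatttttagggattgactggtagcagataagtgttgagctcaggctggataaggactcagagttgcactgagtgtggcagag
Nr4a1, chr15:101266596-101266895, plus strand: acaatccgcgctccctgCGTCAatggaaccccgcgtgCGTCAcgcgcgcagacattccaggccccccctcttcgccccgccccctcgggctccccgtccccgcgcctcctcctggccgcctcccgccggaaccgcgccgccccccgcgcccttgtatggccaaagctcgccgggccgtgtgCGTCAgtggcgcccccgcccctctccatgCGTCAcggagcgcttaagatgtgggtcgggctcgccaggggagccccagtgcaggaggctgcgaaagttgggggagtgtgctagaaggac
Dusp1, chr17:26508423-26508722, minus strand: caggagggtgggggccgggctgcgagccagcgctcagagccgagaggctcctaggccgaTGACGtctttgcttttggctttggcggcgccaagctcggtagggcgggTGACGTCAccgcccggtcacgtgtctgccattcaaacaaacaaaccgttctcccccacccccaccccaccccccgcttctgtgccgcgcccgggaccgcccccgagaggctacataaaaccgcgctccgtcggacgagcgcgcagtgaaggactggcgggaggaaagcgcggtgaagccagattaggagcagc
RefSeq entries were found for 8 of the 10 genes (not for Egr1 and Ier2). The entry of Jund starts upstream of the annotated gene and its window ends before the gene begins, so it was left out. The starts of Atf3, Nr4a1 and Dusp1 lie inside the annotated genes. Of the remaining 7 promoters 6, those of Fos, Fosb, Junb, Atf3, Nr4a1 and Dusp1, held the core TGACG. Of all 32851 promoters of the same length, 20.8% held it. Fos carried it 129 and 66 bases before the start, with TATAAA 33 bases before it, and Nr4a1 carried 4 copies, all on the opposite strand. Dusp1 held the full CRE 143 bases before the start, a match seen in 1.79% of promoters. The window of Jun held neither the core nor TATAAA, and none of the 7 held the AP-1 motif TGANTCA (7.81% of promoters) or the CArG box (1.63%), the site of serum response factor. These are letter matches in 1 window and say nothing of binding.

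Cells were assigned to gates by the number of lineage markers with a UMI, a tag for 1 captured RNA molecule. After filtering, 4398 Control and 3205 IR cells remained, with medians of 7002 and 7864 UMIs per cell. The monocyte gate held 693 Control and 937 IR cells, the macrophage gate 1772 and 372, the T gate 394 and 242, the NK gate 287 and 380, and the DC gate 162 and 189. Smaller gates were fibroblast (88 and 93), basophil or mast (33 and 56) and neutrophil (30 and 172). B and plasmacytoid DC gates held at most 15 cells and are not described. The sample labels name CD45+CD11b+Ly6Chi cells, and the protocol names a CD45+ sort. The T and NK gates are lymphoid, so the cells span more lineages than the narrower label. Ptprc, the gene of CD45, was at 226 to 990 CPM in the monocyte, macrophage, T, NK and DC gates, where CPM is the count per 1000000 of a gate's summed UMIs. In the fibroblast gate it was at 2.17 CPM in Control and 1.92 CPM in IR, so the defining marker of the sort was almost absent there. The 6 fibroblast markers, by which this gate was set, summed to 6426 CPM in Control and 5066 CPM in IR there. The gate is named by these markers alone, and whether its cells were fibroblasts or MC38 tumor cells was not tested.

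The Fos family gave the clearest difference over the 5 larger immune gates. Fosb, a partner of Jun proteins, was lower in IR in each of the 5 larger immune gates. In the monocyte gate Fosb was at 511 CPM in Control and 312 CPM in IR cells (2464 and 2553 UMIs), a log2 ratio of -0.71 (-0.79 to -0.63). In the macrophage gate it was at 518 and 312 CPM (8257 and 1276 UMIs), a log2 ratio of -0.73 (-0.82 to -0.65). The monocyte and macrophage gates thus had almost the same Fosb level within each library, 0.02 apart or less on the log2 scale. In the T gate Fosb was at 410 and 221 CPM (-0.89, -1.07 to -0.71), in the NK gate at 230 and 126 CPM (-0.87, -1.05 to -0.69) and in the DC gate at 384 and 183 CPM (-1.07, -1.26 to -0.87).

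Fos, the most studied partner of Jun in AP-1, was also lower in IR in these gates, by less in the monocyte and macrophage gates. The monocyte gate had 849 CPM without and 671 CPM after irradiation (4092 and 5488 UMIs), a log2 ratio of -0.34 (-0.40 to -0.28). The macrophage gate had 856 and 676 CPM (13659 and 2769 UMIs), a log2 ratio of -0.34 (-0.40 to -0.28). In the T gate Fos was at 289 and 145 CPM (601 and 246 UMIs, log2 ratio -0.995, -1.21 to -0.78). The NK gate had 178 and 101 CPM (381 and 402 UMIs, -0.81, -1.02 to -0.60). The DC gate had 549 and 242 CPM (739 and 484 UMIs, -1.18, -1.35 to -1.01). The intervals of Control and IR did not overlap in any of these gates for either gene.

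**Figure D1:**
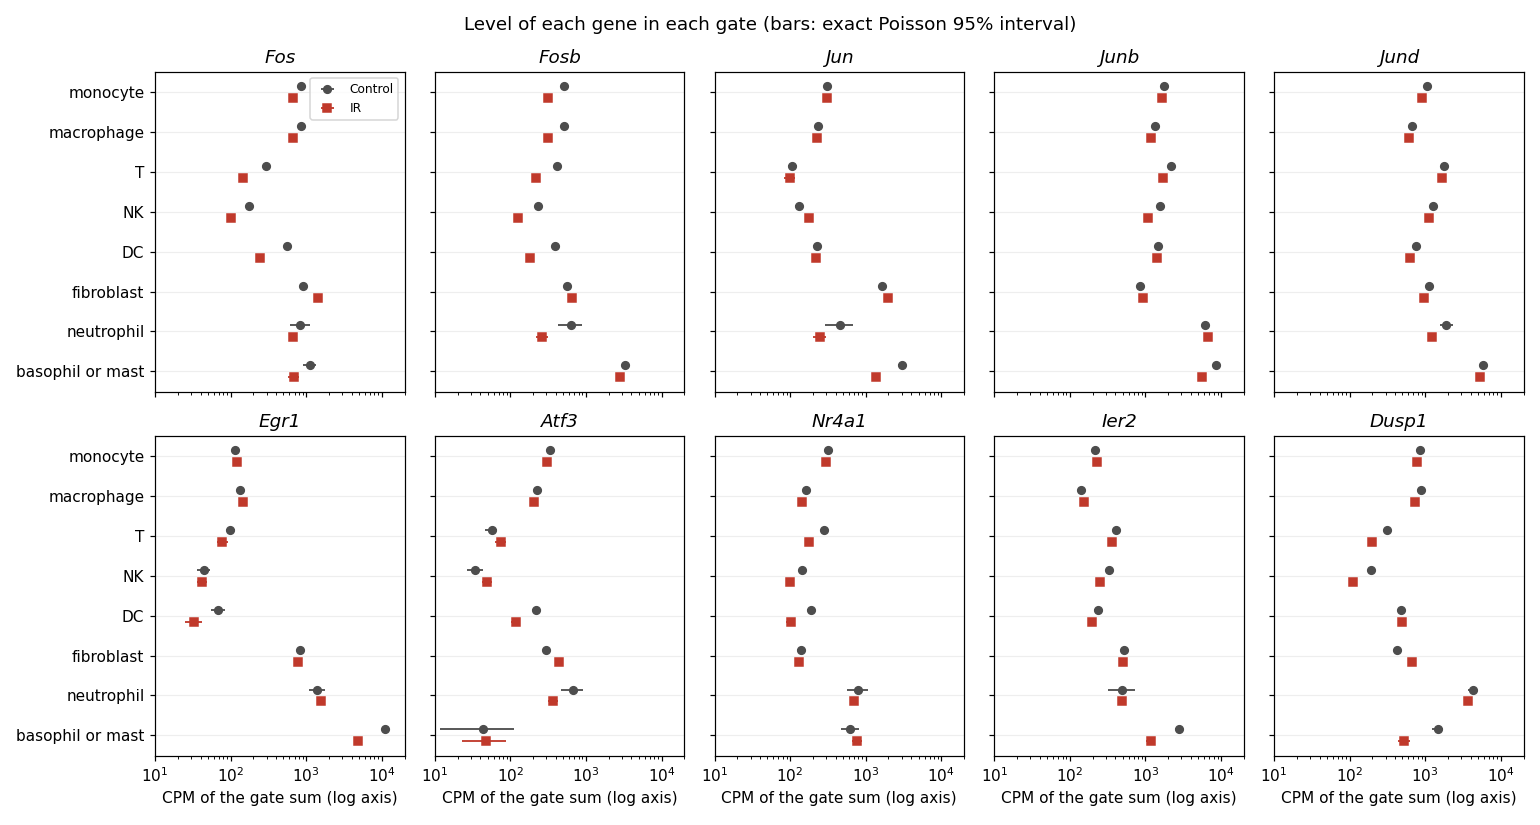
CPM of each gene (log axis) in 8 gates, with Control as grey circles, IR as red squares and exact Poisson 95% intervals as bars. Fos was at 178 CPM in the Control NK gate against 849 to 899 in the Control monocyte, macrophage and fibroblast gates. Egr1 at 11125 CPM in the Control basophil or mast gate stands far to the right of the other gates.

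Across gates, Fos in Control was at 1120 CPM in basophil or mast, 899 in fibroblast, 856 in macrophage, 849 in monocyte, 838 in neutrophil, 549 in DC, 289 in T and 178 in NK cells. The intervals of neighbours in this order overlapped from basophil or mast to neutrophil, and those of DC, T and NK stood apart. In IR the fibroblast gate came first at 1445 CPM, and the next 4 gates, from basophil or mast at 687 CPM to neutrophil at 660 CPM, again overlapped from neighbour to neighbour.

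In the Jun family the ratios were closer to 0 in the monocyte, macrophage and DC gates than those of Fosb. Jun, the founding DNA-binding partner of AP-1, was at 306 CPM in Control and 304 CPM in IR in the monocyte gate (-0.01, -0.11 to 0.08). In the macrophage gate it was at 231 and 225 CPM (-0.03, -0.14 to 0.07), and in the DC gate at 224 and 222 CPM (-0.01, -0.22 to 0.21). In these 3 gates no difference in Jun was detectable beyond counting error, and counting error allows ratios anywhere within the intervals given. In the T gate it was at 107 and 98.6 CPM (-0.12, -0.42 to 0.17). The NK gate differed, with 131 CPM in Control and 180 CPM in IR cells (281 and 716 UMIs), a log2 ratio of 0.46 (0.26 to 0.67). In these sums Jun was thus higher in IR in the NK gate, the same gate in which Fos and Fosb were lower. With cells thinned to 2000 UMIs each, 21.8% of Control (17.0% to 27.3%) and 24.9% of IR NK cells (20.6% to 29.7%) held Jun. These intervals overlapped, and at 1000 UMIs the shares were 12.2% and 12.6%.

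Junb, a Jun protein with weaker activating capacity than Jun in many settings, was lower in the lymphoid gates. In the NK gate it was at 1572 CPM in Control and 1094 CPM in IR cells (-0.52, -0.59 to -0.46), and in the T gate at 2206 and 1724 CPM (-0.36, -0.42 to -0.29). The monocyte gate had 1741 and 1660 CPM (-0.07, -0.11 to -0.03), the macrophage gate 1338 and 1185 CPM (-0.18, -0.22 to -0.13), and the DC gate 1478 and 1406 CPM (-0.07, -0.16 to 0.01). Jund, which many cells express without a stimulus, had the narrowest range of log2 ratios over these 5 gates, between -0.26 in the DC gate and -0.07 in the T gate. Its Control levels ran from 678 CPM in Control macrophages to 1777 CPM in Control T cells.

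Among the other transcription factors, Nr4a1, an orphan nuclear receptor induced by antigen receptor signals in lymphocytes, was lower in IR in the T gate. It was there at 277 CPM in Control and 179 CPM in IR cells (576 and 303 UMIs), a log2 ratio of -0.63 (-0.84 to -0.43). In the NK gate it was at 145 and 101 CPM (-0.52, -0.74 to -0.30) and in the DC gate at 188 and 102 CPM (-0.89, -1.16 to -0.62). In the monocyte gate it was at 317 and 294 CPM (-0.11, -0.20 to -0.02) and in the macrophage gate at 164 and 142 CPM (-0.21, -0.35 to -0.08). Egr1, a zinc finger factor downstream of MAPK signals, was at 116 and 121 CPM in the monocyte gate (0.07, -0.08 to 0.22) and at 132 and 146 CPM in the macrophage gate (0.14, 0.01 to 0.27). In the DC gate it was at 68.4 CPM in Control and 32.5 CPM in IR cells (92 and 65 UMIs), a log2 ratio of -1.07 (-1.55 to -0.60). Atf3, a stress-induced factor of the ATF family, was lower in the DC gate, at 217 and 118 CPM (-0.88, -1.14 to -0.63). It was higher in IR in the NK gate, at 34.0 and 49.1 CPM (73 and 195 UMIs, 0.53, 0.13 to 0.94), where after thinning to 2000 UMIs 5.75% of Control and 8.13% of IR cells held it, shares whose intervals overlapped. Atf3 in the T gate was at 56.3 and 74.4 CPM (117 and 126 UMIs, 0.40, 0.03 to 0.78), but a single IR cell held 21 of these UMIs, and at equal depth 8.70% of Control and 8.22% of IR cells held it.

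Dusp1, the phosphatase that ends MAPK signals, was lower in IR in the NK gate, at 194 and 112 CPM (417 and 443 UMIs, log2 ratio -0.80, -0.997 to -0.60). The T gate had 309 and 195 CPM (642 and 331 UMIs, -0.66, -0.86 to -0.47). The monocyte gate had 851 and 771 CPM (-0.14, -0.20 to -0.09), the macrophage gate 871 and 735 CPM (-0.25, -0.30 to -0.19) and the DC gate 484 and 495 CPM (0.03, -0.11 to 0.18). Ier2, an immediate-early nuclear protein, was at 329 and 252 CPM in the NK gate (-0.38, -0.52 to -0.24) and at 408 and 357 CPM in the T gate (-0.20, -0.35 to -0.04). In the monocyte and macrophage gates its log2 ratios were 0.11 and 0.11, with intervals that included 0.

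**Figure D2:**
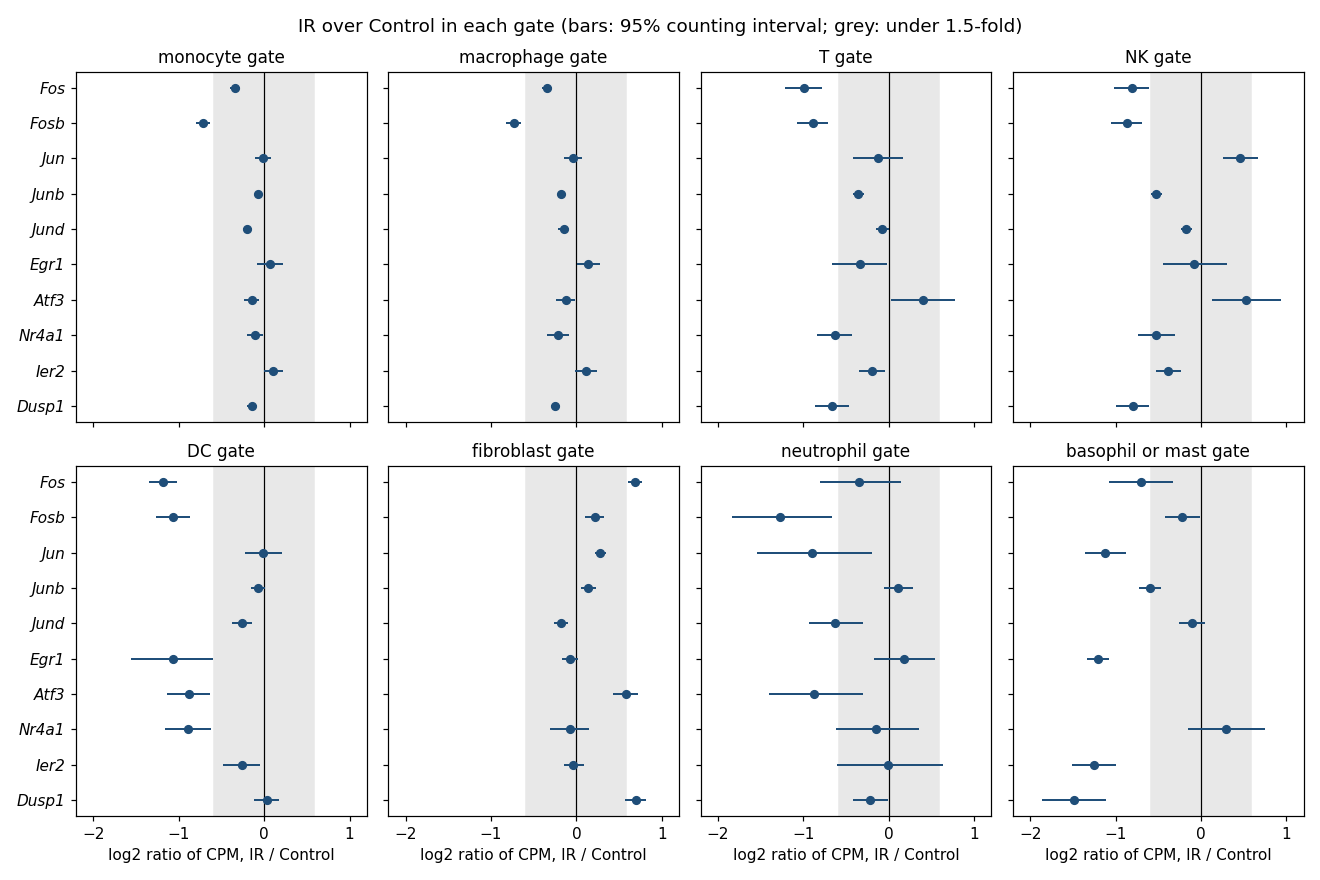
Log2 ratio of CPM, IR over Control, of each gene in 8 gates, with exact 95% counting intervals as bars and differences under 1.5-fold shaded grey; Atf3 is left out of the basophil or mast gate, where it had 4 and 10 UMIs. Fos and Fosb lie left of the shaded band in the T, NK and DC gates, while Fos and Dusp1 lie right of it in the fibroblast gate at 0.69 each.

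A gene was counted as different in a gate when its ratio passed 1.5-fold among genes with at least 100 UMIs in the 2 libraries. In the monocyte gate 1 of 10 members (Fosb) was lower by this measure, against 5.08% of all genes, and 0 were higher, against 4.98%. In the macrophage gate 1 member (Fosb) was lower, against 9.16% of genes, and 0 were higher, against 4.93%. In the T gate 4 members (Fos, Fosb, Nr4a1 and Dusp1) were lower, against 4.79% of genes, and 0 higher, against 3%. The NK gate had 3 lower members (Fos, Fosb and Dusp1), against 6.16% of genes, and 0 higher, against 3.08%. In the DC gate 5 members (Fos, Fosb, Egr1, Atf3 and Nr4a1) were lower, against 4.45% of genes, and 0 higher, against 6.24%. The median log2 ratio of the 10 members was -0.13 in the monocyte, -0.16 in the macrophage, -0.35 in the T, -0.45 in the NK and -0.57 in the DC gate. Medians over all genes tested lay between -0.08 and 0.05 in these gates. The share of mitochondrial UMIs, a measure of cell quality, was also lower in IR in each of them, with a median per cell of 5.71% in Control and 3.61% in IR in the macrophage gate and 3.31% and 1.97% in the DC gate. Its part in the members' differences was not tested. Taken as a mean over cells in place of a sum, Fosb in the macrophage gate (-0.55), Fos and Nr4a1 in the T gate (-0.57 and -0.51) and Dusp1 in the NK gate (-0.51) were under 1.5-fold in the same direction. By the same mean, Junb and Nr4a1 in the NK gate went from -0.52 each to -0.17 and -0.16. Ier2 in the T gate changed sign, from -0.20 to 0.08.

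In the fibroblast gate 6 members were higher in IR and 4 lower. Fos was at 899 CPM in Control and 1445 CPM in IR cells (1653 and 4521 UMIs), a log2 ratio of 0.69 (0.60 to 0.77). Dusp1 was at 420 and 679 CPM (772 and 2124 UMIs, 0.69, 0.57 to 0.81), and Atf3 at 294 and 439 CPM (541 and 1372 UMIs, 0.58, 0.43 to 0.72). Jun was at 1624 and 1974 CPM (0.28, 0.22 to 0.35), the highest Jun level of any gate in IR. By the 1.5-fold measure 2 of 10 members (Fos and Dusp1) were higher, against 4.85% of genes, and 0 were lower, against 5.1%; Atf3 lay just under it. Fosb and Junb gave 0.21 (0.11 to 0.32) and 0.14 (0.05 to 0.23). Of the 4 lower members, Jund was at 1112 and 979 CPM (-0.18, -0.27 to -0.10), and Egr1, Nr4a1 and Ier2 gave -0.08, -0.08 and -0.03, with intervals that included 0. The median over the 10 members was 0.18, and over all genes -0.02. Fibroblast-gate cells of the IR library were also larger, with a median of 31209 UMIs against 18273 in Control, and the part of depth in these differences was not tested. With cells thinned to 2000 UMIs each, 50% of Control (38.5% to 61.5%) and 60% of IR cells (48.8% to 70.5%) held Fos. Dusp1 was held by 41.0% and 41.2%, and the intervals overlapped for both genes. At 1000 UMIs the shares were 44.3% and 44.1% for Fos and 19.3% and 24.7% for Dusp1. The mean at 2000 UMIs was 2.23 and 3.02 UMIs per cell for Fos and 0.95 and 1.25 for Dusp1. Without thinning, the highest Fos count of a cell was 153 in Control and 375 in IR. Taken as a mean over cells, the Dusp1 ratio was 0.42, Fos 0.64, Jun 0.53 and Junb 0.45. The same mean took Egr1 from -0.08 to 0.15, Nr4a1 from -0.08 to 0.46 and Ier2 from -0.03 to 0.30. The number of lower members thus depends on this choice.

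The basophil or mast gate and the neutrophil gate held the highest levels of several members. The former does not separate basophils from mast cells, and their shares in each library were not measured. In the basophil or mast gate Egr1 was at 11125 CPM in Control and 4836 CPM in IR cells (1033 and 1007 UMIs), a log2 ratio of -1.20 (-1.33 to -1.08). Even the lower of these was above the other 7 gates in either library, of which the nearest was the IR neutrophil gate at 1574 CPM. In the same gate Dusp1 was at 1475 and 528 CPM (137 and 110 UMIs, -1.48, -1.86 to -1.11), Ier2 at 2789 and 1172 CPM (-1.25, -1.51 to -0.99) and Jun at 2983 and 1373 CPM (-1.12, -1.36 to -0.88). Fosb, by contrast, was at 3328 and 2862 CPM (-0.22, -0.42 to -0.01), and Jund at 5773 and 5350 CPM (-0.11, -0.26 to 0.04). Of the 9 members with enough UMIs there, 6 (Fos, Jun, Junb, Egr1, Ier2 and Dusp1) were lower by 1.5-fold, against 7.93% of genes, and 0 higher, against 11.5%. The heat shock genes were also lower in this gate, with a sum of 8562 CPM in Control and 5129 CPM in IR cells, and their part was not tested.

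In the neutrophil gate Junb was at 6173 CPM in Control and 6662 CPM in IR cells, and Dusp1 at 4268 and 3663 CPM, above the monocyte gate in both libraries. Here 4 members (Fosb, Jun, Jund and Atf3) were lower by 1.5-fold, against 16.1% of genes, and 0 higher, against 17.2%. The Control values rest on 30 cells with a median of 1760.5 UMIs, and Jun had 24 UMIs there. With cells of at least 2000 UMIs, 5 Control cells were left and the Jun log2 ratio turned from -0.90 to 0.05.

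Summed over all cells of a library, the members gave another picture. Jun was at 311 CPM in Control and 421 CPM in IR, a log2 ratio of 0.44, and Egr1 at 191 and 259 CPM, also 0.44. Ier2 gave 0.29, Fos -0.27 and Fosb -0.57. None of the 10 passed 1.5-fold in either direction, against 8.07% of genes higher and 6.3% lower. When the IR levels of the gates were weighted with the Control gate shares of UMIs, the log2 ratio was 0.08 for Jun, 0.08 for Egr1 and 0.04 for Ier2, while Fos gave -0.26 and Fosb -0.65, which is past 1.5-fold.

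**Figure D3:**
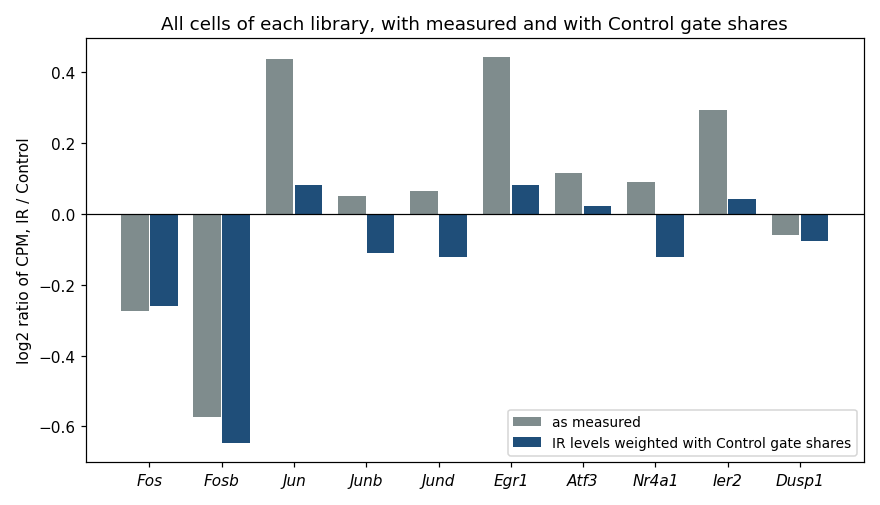
Log2 ratio of CPM over all cells, IR over Control, as measured (grey bars) and with each gate's IR level weighted by its Control share of UMIs (blue bars). The bars of Jun and Egr1 go from 0.44 to 0.08, those of Junb, Jund and Nr4a1 pass below 0, and those of Fos and Fosb stay below 0.

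Small gates carried much of the pooled values. Fibroblast-gate cells gave 25.8% of all Jun UMIs in Control and 44.0% in IR, while their share of all UMIs went from 4.94% to 9.37%. The macrophage gate gave 31.8% of Jun UMIs in Control and 6.57% in IR. For Egr1 the fibroblast gate gave 21.3% and 28.2%, the basophil or mast gate 14.6% and 11.6% from 0.25% and 0.62% of UMIs, and the neutrophil gate 1.03% and 8.08%.

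Per cell, the lower sums of Fos and Fosb went with fewer cells that held them, but for Fos in the macrophage gate the intervals overlapped. Cells were thinned to 2000 UMIs each so that depth was equal. A UMI of Fosb was found in 49.2% of Control monocyte-gate cells (Clopper-Pearson 45.3% to 53.0%) and 35.5% of IR cells (32.4% to 38.7%). In the T gate Fos was found in 29.3% (24.5% to 34.4%) and 15.1% (10.6% to 20.5%), and in the NK gate in 26.1% (20.8% to 31.8%) and 13.8% (10.5% to 17.8%). In the DC gate the shares for Fos were 46.2% (38.2% to 54.3%) and 26.9% (20.6% to 34.0%). Without thinning these shares were 70.9% and 59.1% for Fosb in monocytes, and for Fos 51.8% and 31.0% in T, 44.9% and 26.6% in NK and 69.1% and 50.8% in DC. Thinning left out 30 Control and 35 IR cells of the monocyte gate, 49 and 23 of the T gate, 26 and 11 of the NK gate and 6 and 7 of the DC gate. Free RNA can add such UMIs, and no gate is known to lack these genes, so no background share could be read from the cells. Its share of a gate's UMIs, estimated from genes of other lineages, was between 0.70% and 4.50% in the 5 larger gates, and subtracting it moved the Fos ratio in the DC gate from -1.18 to -1.23 and in the T gate from -0.995 to -1.01.

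At this depth a monocyte-gate cell held UMIs of a median of 5 of the 10 genes in Control and 4 in IR, and in the T, NK and DC gates the median was 4 in Control and 3 in IR. It was 4 in both libraries in the macrophage gate, where the spread was wide. In the monocyte and T gates the difference was not seen at every depth. At 1000 UMIs the medians were 3 and 3 in the monocyte and T gates and 3 and 2 in the macrophage, NK and DC gates, and without thinning they were 7 and 7 in the monocyte and macrophage gates. At 2000 UMIs in the macrophage gate 6.18% of Control cells held none of the genes and 8.24% held 8 or more. In the fibroblast gate 19.2% of Control and 34.1% of IR cells (15 and 29 cells) held 8 or more. At 1000 UMIs these shares were 9.09% and 10.8% (8 and 10 cells), and without thinning 54.5% and 74.2%.

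**Figure D4:**
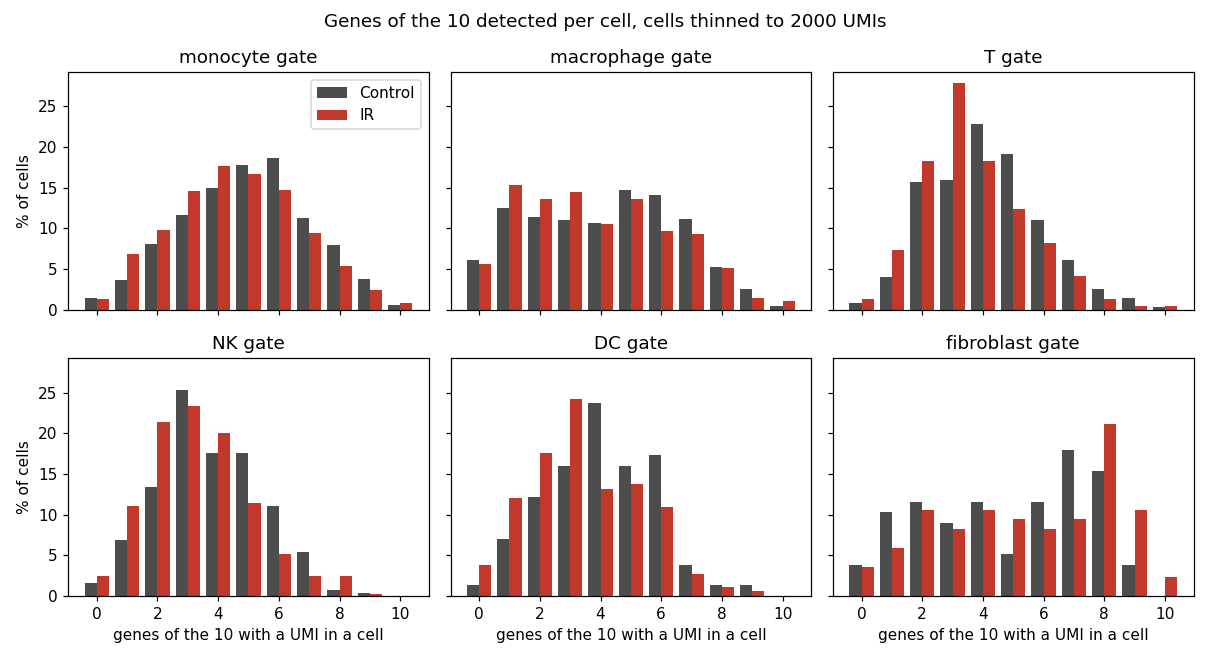
Share of cells (%) by the number of the 10 genes with a UMI, after thinning to 2000 UMIs, in 6 gates, with Control in grey and IR in red. In the T, NK and DC gates the IR bars lie to the left of the Control bars (medians 3 and 4). In the fibroblast gate the IR bars are taller at 8 or more. At 1000 UMIs the fibroblast-gate shares at 8 or more were 9.09% in Control and 10.8% in IR.

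Within gates the members moved together to unequal degrees. Over the 45 pairs of members the median Spearman correlation across thinned cells was between 0.12 and 0.25 in the 5 larger gates, a description of sparse counts that share depth. The highest pair in the macrophage gate was Fos with Dusp1, at 0.65 over 1651 Control cells and 0.61 over 352 IR cells, and the same pair led in the monocyte gate at 0.46 and 0.45. This pair was at 0.20 and 0.15 in the T gate, 0.24 and 0.26 in the NK gate and 0.17 and 0.23 in the DC gate.

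The DC and T gates were split further, with rules set after the values were seen. Among DC with at least 2 markers of the mature state (Ccr7, Fscn1, Ccl22 and Il4i1) and more of these than of type 1 markers, 123 Control and 144 IR cells, Fos was at 325 and 178 CPM (-0.87, -1.12 to -0.63), Fosb at 335 and 164 CPM (-1.03, -1.28 to -0.79) and Nr4a1 at 137 and 50.7 CPM (-1.44, -1.87 to -1.01). Egr1 in these cells was at 32.2 and 28.1 CPM (-0.19, -0.91 to 0.54), so its difference in the whole DC gate was not seen there. DC with type 1 markers numbered 20 and 8, and in these Egr1 was at 179 CPM in Control on 44 UMIs and 40.9 CPM in IR on 4 UMIs. Among T cells with a Cd8a or Cd8b1 UMI and no Cd4 UMI (182 and 112 cells), Fos was at 220 and 75.6 CPM (-1.54, -1.95 to -1.15). Among those with Cd4 and neither Cd8 gene (67 and 37 cells) it was at 384 and 311 CPM (-0.30, -0.77 to 0.16). Whether Cd8 and Cd4 cells differ in this was not tested.

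Other genes of the pathway were read from lists. Of 24 further immediate-early genes with enough UMIs in the monocyte gate, 2 were higher and 3 lower by 1.5-fold, against 4.98% and 5.08% of all genes. Of 24 in the macrophage gate 3 were higher and 2 lower, against 4.93% and 9.16%. Nr4a3, a relative of Nr4a1, was at 129 and 70.0 CPM in the monocyte gate (-0.88, -1.05 to -0.71). Klf4, a zinc finger factor of monocyte differentiation, was at 543 and 300 CPM in the macrophage gate (-0.86, -0.94 to -0.77). Ier3, a stress-induced survival gene, was higher there, at 500 and 883 CPM (0.82, 0.76 to 0.88). Nr4a2, the remaining member of the receptor family, was picked after its values were seen. Its log2 ratio was -0.65 in the monocyte, -0.77 in the macrophage, -0.84 in the T, -0.75 in the NK and -0.65 in the DC gate. In the fibroblast gate 11 of 24 genes of this list were higher by 1.5-fold and 0 lower, against 4.85% and 5.1% of all genes, with a median of 0.54; among them Sgk1 was at 329 and 592 CPM and Ier3 at 761 and 1298 CPM.

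Of the other AP-1 genes, 1 of 8 was higher and 1 lower in the monocyte gate and 0 of 7 higher and 1 lower in the macrophage gate, beside the same shares of all genes. Fosl1, a further Fos relative, was at 5.60 and 15.2 CPM in the monocyte gate (27 and 124 UMIs, 1.44, 0.83 to 2.09). Batf3, which DC need for their type 1 lineage, was at 31.4 and 12.2 CPM in the macrophage gate (-1.36, -1.81 to -0.94), and Jdp2, a repressor of AP-1, at 27.8 and 40.6 CPM in the monocyte gate (0.55, 0.25 to 0.85). Of the upstream kinases and factors, none of 9 tested in the monocyte and none of 10 in the macrophage gate passed 1.5-fold. The largest ratios were those of Creb1 (-0.58) and Elk4 (-0.49) in the macrophage gate and Mapk14, a stress-activated kinase, in the monocyte gate (-0.48).

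Heat shock genes, which tissue digestion also induces, gave a sum led by Hspa8, a chaperone that cells also express unstressed. The 10 genes summed to 2698 CPM in Control and 2669 CPM in IR in the monocyte gate, 2674 and 2731 CPM in the macrophage gate and 3246 and 3216 CPM in the DC gate. They summed to 3040 and 3292 CPM in the T gate, 2895 and 3179 CPM in the NK gate and 4930 and 6171 CPM in the fibroblast gate. Hspa8 alone was at 2246 and 2425 CPM in the DC gate and at 1606 and 1821 CPM in the T gate. The median log2 ratio of the heat shock genes tested was -0.05 in the monocyte, -0.10 in the macrophage, -0.07 in the T, 0.16 in the NK, -0.11 in the DC and 0.35 in the fibroblast gate. The strongly inducible Hspa1a and Hspa1b, picked after their values were seen except for Hspa1b in monocytes, differed in direction between gates. In the DC gate, where 5 members were lower by 1.5-fold, Hspa1a was at 57.2 CPM in Control and 8.01 CPM in IR cells (77 and 16 UMIs, -2.84, -3.71 to -2.05) and Hspa1b at 49.8 and 8.01 CPM (67 and 16 UMIs, -2.64, -3.52 to -1.83). In the macrophage gate they gave -0.48 and -0.85. Both were higher in IR in the T gate, where 4 members were lower, with Hspa1a at 8.19 and 73.8 CPM (17 and 125 UMIs) and Hspa1b at 13.0 and 59.0 CPM (27 and 100 UMIs). In the NK gate they gave 0.55 and -0.16, with intervals that included 0. In the monocyte gate Hspa1b was at 24.9 and 54.4 CPM (1.13), Hspa1a gave 0.48 and Hspd1 was at 94.6 and 56.3 CPM (-0.75). Hspb1 was at 2.95 and 15.4 CPM on 47 and 63 UMIs (2.38) in the macrophage gate. What part digestion had in the members' levels was not tested.

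The genes whose pattern was most like the mean of the 10 were sought among 2792 genes over 10 sums, 5 gates in each of 2 libraries, by Pearson correlation of log2(CPM + 10). The 8 nearest were Fnip1 (0.97), Tent5c, Kdm7a, Klf4 (0.95), Larp4b, BC005537, Flna and Dnm2 (0.93). Klf4 ran from 58.4 to 718 CPM over these sums and Fnip1 from 25.7 to 81.3 CPM. The sums of 1 library share its preparation, and the values are a description.

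The genes lie apart in the genome (GRCm38): Fos on chromosome 12 from 85473890 to 85477273, Fosb on 7 from 19302696 to 19310051, Jun on 4 from 95049034 to 95052222 and Nr4a1 on 15 from 101254269 to 101274795. Atf3 lies on chromosome 1 and Dusp1 on 17, while Junb, Jund and Ier2 are all on 8, with Ier2 and Junb starting less than a megabase from each other. Jun and Jund overlap antisense genes, Junb overlaps Prdx2 and Dusp1 overlaps Ergic1 on the other strand and AC122252.1 on its own. UMIs of these 4 could be uncertain if counting had not used strand, which is not given in the sources used here. For Dusp1 the overlap with AC122252.1 remains where strand is used.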

How the data were processed

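The files deposited by the authors held raw, unfiltered UMI counts, made with Cell Ranger (6.0.1 per the labels, 4 in the matrix header) on mm10, from 1 Control and 1 IR library (48593879 and 42406461 UMIs, 6 shared barcodes among cells). Barcodes with at least 1000 UMIs, 200 genes and at most 25% mitochondrial UMIs were kept (4679 and 3410). The study used DoubletFinder; here Scrublet (scanpy 1.11.5) called 0 doublets, so the top 6% of scores were removed (281 and 205). A gate needed 3 of its markers, under 3 of another lineage and at most 4 of 12 monocyte or macrophage markers (6 for DC); monocytes and macrophages needed 5 of 12 and were split by monocyte against C1q UMIs. These cutoffs followed the marker distributions. Mixed (555 and 492) and unassigned (362 and 260) cells entered only the sums over all cells. CPM ratios carry exact conditional binomial intervals and levels exact Poisson ones, for counting error only. Members and lists were chosen with earlier results of these data known. From each list the 3 largest ratios in the monocyte or macrophage gate were named. The ratio script was tested on simulated data. Alternatives covered UMI, mitochondrial, doublet and marker limits, gate genes, TMM scaling (edgeR 4.0.16), totals and free RNA.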

Additional observations from a re-analysis of the deposited data

Results flagged for a closer look

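Fos was higher in IR in the fibroblast gate and lower in others, with log2 ratios that differed by 1.68 from the T, 1.496 from the NK, 1.87 from the DC and 1.39 from the basophil or mast gate. Dusp1 differed in the same way, by 1.36 from the T, 1.49 from the NK and 2.18 from the basophil or mast gate. These were noted because the gates moved in opposite directions past 1.5-fold in a single library each, and the differences were not tested. As a mean over cells Dusp1 was under 1.5-fold in the fibroblast (0.42) and NK (-0.51) gates, and so was Fos in the T gate (-0.57). At equal depth the shares of fibroblast-gate cells with Fos or with Dusp1 had intervals that overlapped between the libraries.

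Droplets with 5 to 100 UMIs hold free RNA and entered the gate ratios only where free RNA was subtracted. They also carried the 10 genes, and 5 of the 10 were higher in IR. For 3 of these the Poisson intervals of the libraries did not overlap: Jun at 250.1 CPM (198 in Control), Jund at 1100 CPM (928) and Ier2 at 290 CPM (245). Atf3 went from 183 to 209 CPM and Egr1 from 138 to 147 CPM. Fosb in these droplets was at 452 CPM in Control and 290 CPM in IR, in the direction seen in the immune gates.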

How the results depend on the processing

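Of the main values recomputed under the alternatives, 174 stayed within their counting interval or near their count and 16 moved, of which 3 changed sign (Junb, Jund and Nr4a1 over all cells). The macrophage median of -0.16 became -0.000468 with gate genes not induced by interferon, -0.24 with a total without mitochondrial and ribosomal genes and -0.035 as a mean over cells, which also took the NK median from -0.45 to -0.14. With TMM, or with no doublet removal, 1 member was higher by 1.5-fold in the NK gate in place of 0. With Control gate shares the ratios over all cells were -0.65 for Fosb, 0.082 for Jun, -0.11 for Junb, -0.12 for Jund, 0.080 for Egr1, 0.023 for Atf3, -0.12 for Nr4a1 and 0.042 for Ier2. The ratio of Fosb shares in the monocyte gate was 0.83 with no thinning, and the median of genes per monocyte was 3 in both libraries at 1000 UMIs. A single-gene value reversed, Jun in the neutrophil gate at 0.046 with at least 2000 UMIs. The causes of these moves were not tested. TMM moved all ratios by 0.07 in the monocyte, macrophage and NK gates and by 0.19 in the neutrophil gate. Signs of values near 0, such as Jun and Junb in monocytes, thus depend on the scaling. Fosb kept its sign in the 5 larger gates under each alternative run. No paired analysis was possible because each group has 1 library. Mouse and library variation could not be measured.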
